A study of Brassica napus with 12 samples.

Results

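The first parts of chromosomes A01 and C01 of Brassica napus are the genes with identifiers from BnaA01g00010D to BnaA01g13390D and from BnaC01g00040D to BnaC01g14120D. They hold 1602 of the 52962 genes in the deposited tables, 794 on the A01 side and 808 on the C01 side. The members were chosen from measured values: in the root and leaf libraries of no-Si replicate 1, A01 genes of this stretch lay below and C01 genes above the other libraries. The size of that shift is therefore given as a description, with no test.

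Brassica napus (oilseed rape) is an allotetraploid that carries the chromosomes of the Brassica rapa lineage (A) and of the Brassica oleracea lineage (C). A01 and C01 are homoeologous: they descend from the same ancestral chromosome, so many of their genes occur as a pair of closely similar copies. Homoeologous chromosomes of rapeseed are known to pair with each other at times and to exchange segments, and the copies on the exchanged segments then change in dose. DNA copy number was not measured in these libraries, and its part in the values below was not tested.

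Roots and leaves of the variety Citizzen, given as wild type, were profiled by stranded, poly(A)-selected RNA-seq in 4 groups of 3 libraries each, root and leaf with and without silicon. From the emergence of leaf 4, plants in aerated nutrient solution received either sodium metasilicate (1.7 mM Si) or, to match its sodium, 3.4 mM NaCl for 1 week, so the no-Si plants alone received the added chloride. Per the labels, the no-Si plants and those of leaf Si replicate 3 were planted on 12 February and the other Si plants on 21 March. Harvest was on 28 March throughout. A planting on 21 March leaves less time than the 4 days of germination, 10 days of nutrient solution and 1 week of supply that the protocol gives, so the labels cannot all hold. If the dates hold, Si supply and planting date cannot be told apart in root, and in leaf only Si replicate 3 shares the date of the no-Si plants. The labels do not say how many plants made up a library, nor whether same-numbered root and leaf libraries shared plants. The p-values below weigh differences against the spread between these libraries only.

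Sense counts over all genes ran from 15616881 to 19330076 per root library and from 14429867 to 21792206 per leaf library. Multimapping reads, which the tables set apart from the genes, made up 7.73% to 9.66% of a library, with 8.76% in root no-Si replicate 1 and 9.64% in leaf no-Si replicate 1. Unmapped reads made up 5.36% to 9.51% of 11 libraries and 15.6% of leaf no-Si replicate 2. The files pair no gene name or product with an identifier, so organ markers, gene functions and homoeologous gene pairs were not analysed here. Near-identical A and C copies can share reads, so the level of any single copy is uncertain to that extent.

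Most members were expressed in both organs. On the A01 side 772 genes and on the C01 side 770 genes had at least 1 read, and 22 and 38 had none in any library. A mean of at least 1 CPM (counts relative to library size, with sizes scaled by TMM, the trimmed mean of M-values) was reached in both organs by 604 A01 and 603 C01 genes. It was reached in roots alone by 51 and 60 genes, in leaves alone by 43 and 40, and in neither organ by 96 and 105. The median level of the genes expressed in both organs was 11.2 CPM in root and 13.5 CPM in leaf for A01, and 12.9 and 14.1 CPM for C01. Over all genes of the series these medians were 11 and 11.7 CPM.

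The summed counts show the opposite course of both sides in 1 replicate. In root, the A01 part held 1.59% of the gene counts of no-Si replicate 1 and 1.91% to 1.98% of those of the other 5 libraries. The C01 part held 2.18% against 1.85% to 1.96%. Both parts together held 3.77%, inside the 3.76% to 3.94% of the others, so that in root the A01 and the C01 value of no-Si replicate 1 lay outside the range of the other libraries and their sum within it.

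In leaf, the A01 part held 1.97% of the counts of no-Si replicate 1 against 2.25% to 2.50% in the other 5. The C01 part held 2.60% against 2.24% to 2.63%. The sum was 4.57% against 4.49% to 5.13%. The leaf C01 value of no-Si replicate 1 was thus high but not outside the range, since leaf no-Si replicate 2 reached 2.63%, while the A01 value was the lowest of the 6.

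**Figure D1:**
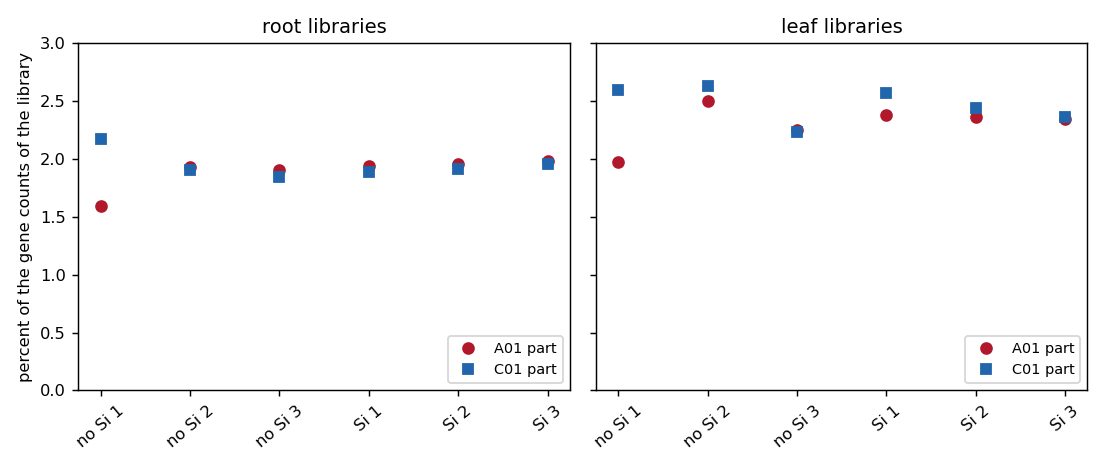
Percent of each library's gene counts (vertical axis, from 0) held by the A01 part (circles) and the C01 part (squares) in the 6 root (left) and 6 leaf libraries (right), 1 point per library. In no-Si replicate 1 the A01 point lies at 1.59% in root and 1.97% in leaf, below all other libraries of its organ, and the C01 point at 2.18% and 2.60%.

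The C01 share of the counts of both parts puts this into 1 number per library. In root it was 57.7% in no-Si replicate 1, and in the other libraries 49.6% and 49.2% without Si and 49.4%, 49.5% and 49.7% with Si. In leaf it was 56.8% in no-Si replicate 1, 51.3% and 49.8% in the other no-Si libraries, and 51.9%, 50.8% and 50.2% with Si. In both organs no-Si replicate 1 stood above every other library, while the other 5 spanned less than 3 percentage points. Over the remaining A01 and C01 genes the same share lay between 45.8% and 48.9% in all 12 libraries, with 47.1% and 48.4% in root and leaf of no-Si replicate 1.

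Reads on the opposite strand, which made up 0.355% to 0.723% of the stranded gene counts, also had their highest C01 share in no-Si replicate 1. The order of the other 5 libraries was not the same as for sense reads. Their C01 share in root was 61.4% (exact 95% binomial interval 59.5% to 63.3%) in no-Si replicate 1 and 53.2% to 55.3% in the other 5. In leaf it was 61.5% (60.3% to 62.8%) against 53.8% to 55.6%. These intervals cover counting error only. Whether such reads are antisense transcripts or sense reads of the wrong orientation was not tested. At least 50 opposite-strand reads in all, and more of them than sense reads, were found for 5 of the 794 A01 members. The same held for 6 of the 808 C01 members and for 361 of the 52962 genes of the series.

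Members that did not reach 1 CPM in both organs, which the comparison along the chromosome left out, gave a C01 share of 56.2% (55.6% to 56.8%) in root of no-Si replicate 1 against 48.7% to 51.5% in the other roots. In leaf their share was 45.7% (45.4% to 46.0%) against 40.5% to 43.6%. Here too, no-Si replicate 1 was the highest library of each organ. The intervals again cover counting error only, and single genes weighed heavily in leaf. BnaA01g12540D held 17734 of the 45823 A01 counts of this set in leaf no-Si replicate 1. As a set, the 43 A01 genes expressed in leaf alone were not lower in that library than in the other leaves, as given below.

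**Figure D2:**
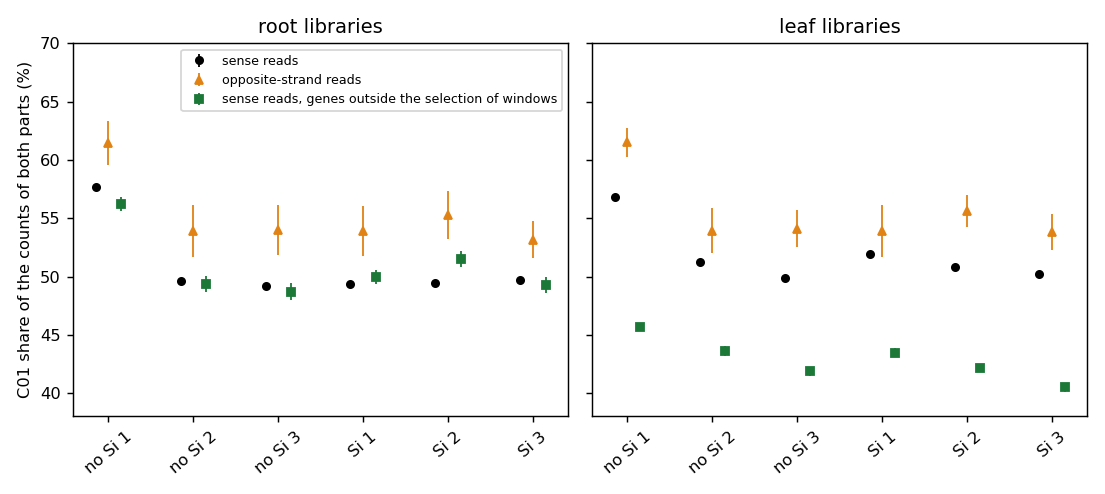
C01 share, in percent, of the summed counts of both parts in each library (vertical axis from 38% to 70%), for sense reads (circles), opposite-strand reads (triangles) and sense reads of members outside the selection of windows (squares); bars are exact 95% binomial intervals and are smaller than some symbols. For all 3 measures no-Si replicate 1 is the highest library in root and in leaf.

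Gene by gene, the shift was small and broad. The deviation of a gene in a library was its log2 CPM (prior count 1) minus the median of the remaining 5 libraries of that organ. In no-Si replicate 1, the median deviation of the 604 A01 genes was -0.25 in root (0.84-fold) and -0.20 in leaf (0.87-fold). Across the other 5 replicates the same median ran from 0.00 to 0.06 in root (SD 0.0258, n = 5) and from -0.00 to 0.06 in leaf (SD 0.0277, n = 5).

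The median of the 603 C01 genes in no-Si replicate 1 was 0.24 in root (1.18-fold) and 0.20 in leaf (1.15-fold). In the other 5 it ran from -0.07 to -0.00 in root (SD 0.0304) and from -0.06 to 0.03 in leaf (SD 0.0373). For the remaining genes of the chromosomes, the medians in no-Si replicate 1 were 0.00 and -0.04 on A01 and 0.00 and 0.00 on C01 (root and leaf). All genes outside both parts had medians of 0.00 and -0.01.

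The distribution moved as a whole and few genes left it. In root the quartiles of the A01 deviations were -0.41 and -0.07, and those of the C01 deviations 0.08 and 0.42. In leaf they were wider, -0.49 and 0.07 on A01 and -0.08 and 0.46 on C01, beside -0.28 and 0.26 for all genes outside the parts. Below 0 in root were 81.5% of the A01 genes and in leaf 68.7%, and 58.8% were below 0 in both organs, where 24.3% of all genes expressed in both organs were. On the C01 side 56.7% were above 0 in both organs, where 23.7% of all genes were. These shares describe the values that chose the members.

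Ranks within an organ gave the same picture. In root, no-Si replicate 1 was the lowest of the 6 libraries for 53.6% of the A01 genes (18.9% of all genes) and the highest for 57.4% of the C01 genes (19.2% of all genes). In leaf it was the lowest for 44.4% of the A01 genes (26.6% of all genes) and the highest for 44.3% of the C01 genes (24.3% of all genes). Genes with a large deviation in root did not tend strongly to have one in leaf: across genes, which are not independent replicates, the Pearson correlation of the root and leaf deviation was 0.137 over the 604 A01 genes and 0.123 over the 603 C01 genes, and 0.102 among the 34514 genes outside the parts.

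**Figure D3:**
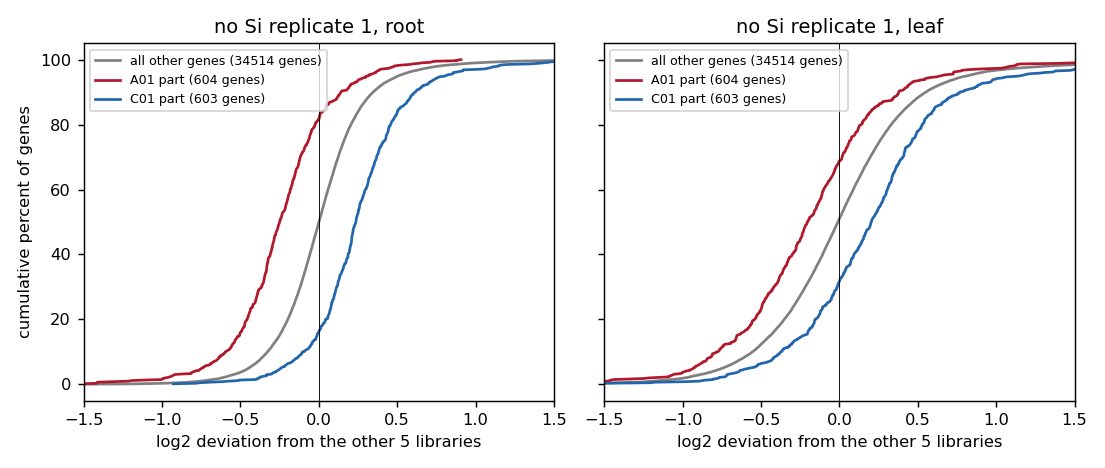
Cumulative percent of genes (vertical axis) against the log2 deviation of no-Si replicate 1 from the other 5 libraries (horizontal axis, cut at -1.5 and 1.5), in root (left) and leaf (right), for the A01 part (604 genes), the C01 part (603 genes) and all other expressed genes (34514). The A01 curve lies left and the C01 curve right of the other genes over most of the range, with medians of -0.25 and 0.24 in root and -0.20 and 0.20 in leaf.

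None of the 604 A01 and 603 C01 genes expressed in both organs lay at or beyond 3 on the log2 scale, in either direction, in root and leaf of any 1 replicate. Among the other 190 A01 and 205 C01 members, no A01 gene did, and 4 C01 genes of low level lay at 3 or above, 1 in no-Si replicate 1 and 3 in no-Si replicate 2. BnaC01g06520D had 13 reads in root and 23 in leaf of no-Si replicate 1 (0.572 and 1.32 CPM), and at most 0.0498 and 0.0956 CPM in the other libraries. BnaC01g02900D had 77 and 45 reads in root and leaf of no-Si replicate 2 (3.83 and 4.30 CPM), and at most 0.0854 and 0.371 CPM in the others. BnaC01g11050D (17 and 15 reads) and BnaC01g12960D (39 and 6 reads) were likewise highest in no-Si replicate 2. Of the 34514 genes outside the parts expressed in both organs, 3 lay at -3 or below and 5 at 3 or above in no-Si replicate 1. In no-Si replicate 2 these counts were 78 and 12. Genes of low level outside the parts were not counted, so nothing is concluded from the 4 C01 genes.

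Among the genes expressed in both organs, smaller deviations shared by root and leaf were more frequent. In no-Si replicate 1, 2 A01 genes lay at -1 or below in both organs, BnaA01g05110D and BnaA01g08560D. In the other replicates 0 to 2 A01 genes did. At 1 or above in both organs were 9 C01 genes in no-Si replicate 1, and 0 to 4 in the other replicates. Of the 34514 genes outside the parts, 17 lay at -1 or below and 74 at 1 or above in no-Si replicate 1. In the other replicates 8 to 219 and 9 to 43 of them did.

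Of the genes that moved with their side, BnaA01g05110D had 3.43 CPM in root no-Si replicate 1, and 3.63, 10.0, 5.67, 13.2 and 9.25 CPM in no-Si replicates 2 and 3 and Si replicates 1 to 3. In leaf it had 2.75 CPM, and 4.01, 12.1, 6.96, 14.9 and 13.2 CPM. No-Si replicate 1 was the lowest library in both organs, but no-Si replicate 2 was nearly as low.

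BnaA01g04870D had 11.7 CPM in root and 16.4 CPM in leaf of no-Si replicate 1, against 15.3 to 35.7 CPM and 22.1 to 38.2 CPM in the others. BnaA01g03680D had 12.1 and 12.7 CPM against 22.8 to 46.5 and 13.6 to 33.9 CPM. For both genes no-Si replicate 1 was the lowest library of each organ, and for BnaA01g04870D no-Si replicate 2 was the next.

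On the C01 side, BnaC01g04240D had 37.1 CPM in root no-Si replicate 1, and 23.7, 12.6, 18.8, 13.2 and 11.2 CPM in the other roots in the same order. In leaf it had 308 CPM, and 99.9, 91.3, 161, 97.4 and 103 CPM. The library of no-Si replicate 1 was the highest in both organs, with a deviation of 1.48 in root and 1.63 in leaf.

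BnaC01g06430D and BnaC01g06390D, by contrast, were high in 2 replicates. BnaC01g06430D had 34.6 and 32.7 CPM in root no-Si replicates 1 and 2 and 6.32 to 17.6 CPM in the other 4, and in leaf 110 and 84.5 CPM against 17.1 to 26.7 CPM. BnaC01g06390D had 20.5 and 17.2 CPM in the same roots against 3.8 to 7.89 CPM, and in leaf 14.0 and 8.51 CPM against 3.17 to 5.75 CPM. They lie 4 places apart in the gene order, and BnaC01g06420D and BnaC01g06470D, of the same stretch, were also among the 9 genes at 1 or above. BnaC01g06420D had 4.66 and 3.73 CPM in root no-Si replicates 1 and 2 against 0.342 to 1.77 CPM in the other 4, and in leaf 5.96 and 2.49 CPM against 0.113 to 1.02 CPM. BnaC01g06470D had 7.70 and 5.33 CPM in these roots against 0.726 to 1.90 CPM, but in leaf Si replicate 3 (3.27 CPM) lay between no-Si replicate 1 (3.55 CPM) and no-Si replicate 2 (2.29 CPM). In root these few genes thus differed between no-Si replicates 1 and 2 on the one hand and the rest on the other, unlike the median of the C01 part, which in no-Si replicate 2 was -0.04 in root and 0.01 in leaf. The window of 25 expressed genes around them (BnaC01g06260D to BnaC01g06870D) also had medians of 0.28 in root and 0.23 in leaf in no-Si replicate 2. It had -0.35 and -0.18 in Si replicate 2, -0.21 and -0.17 in Si replicate 3, and -0.19 and -0.15 in no-Si replicate 3. In Si replicate 1 it had 0.03 and 0.17, so its values did not split by Si.

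Some members went against their side. BnaA01g03010D had 10.6 CPM in root no-Si replicate 1 against 4.61 to 7.49 CPM in the others, and in leaf 109 CPM against 36.8 to 97.7 CPM. BnaA01g11670D had 8.67 CPM in root against 4.08 to 5.30 CPM and 23.1 CPM in leaf against 12.5 to 18.1 CPM. Both A01 genes were highest in the replicate in which the A01 part was low.

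On C01, BnaC01g05030D was lowest in both organs of no-Si replicate 1, with 66.6 CPM in root against 75 to 87.0 CPM and 88.7 CPM in leaf against 91.3 to 175 CPM. BnaC01g01600D had 6.29 CPM in root against 3.83 to 7.44 CPM and 17.2 CPM in leaf against 22.2 to 32.3 CPM. The second gene was thus outside the range of the other libraries in leaf only.

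The shift did not depend on 1 class of genes. Divided into terciles by level, the A01 genes had medians in no-Si replicate 1 of -0.23, -0.26 and -0.25 in root, from the lowest to the highest level, and -0.15, -0.21 and -0.24 in leaf. The C01 terciles had 0.21, 0.26 and 0.23 in root and 0.26, 0.20 and 0.17 in leaf. In each tercile the value of no-Si replicate 1 lay outside the range of the other 5, which together reached from -0.11 to 0.09.

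Genes called higher in leaf, higher in root or neither, at a log2 difference of at least 1 and an adjusted p under 0.05, were shifted alike in direction. On A01 the medians of these classes, in that order, were -0.30, -0.20 and -0.25 in root and -0.12, -0.15 and -0.21 in leaf. On C01 they were 0.19, 0.26 and 0.24 in root and 0.21, 0.28 and 0.20 in leaf. Genes expressed in 1 organ only followed in 3 of 4 cases: the 51 root-only A01 genes had -0.23, the 60 root-only C01 genes 0.24 and the 40 leaf-only C01 genes 0.21. The 43 leaf-only A01 genes had 0.08, inside the range of -0.13 to 0.10 of the other 5 replicates.

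Along the chromosomes, the gene order was taken from the identifiers, since the genome build is not given in the sources used here. Of the members, 33 on A01 and 37 on C01 equalled a symbol in a RefSeq table of the Da-Ae assembly, 31 and 36 of them on the same chromosome there. Among these, all 30 of 30 steps on A01 and all 35 of 35 steps on C01 had the same order in Da-Ae as in the identifiers.

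In successive windows of 25 genes expressed in both organs, the A01 part of no-Si replicate 1 was below 0 in root and leaf in 24 of 24 windows, and beyond 0.1 in both in 18. In the other 5 replicates, 0 to 5 of the 24 windows were below 0 in both organs and none beyond 0.1. The C01 part was above 0 in both organs in 22 of 24 windows, and beyond 0.1 in 20, against 0 to 5 windows and 0 to 1 window. The exceptions on C01 were the windows BnaC01g06880D to BnaC01g07470D (0.21 in root, -0.02 in leaf) and BnaC01g09310D to BnaC01g09980D (0.17 and -0.03).

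The lowest A01 root value stood at the very start of the chromosome, where the window BnaA01g00010D to BnaA01g00770D had -0.36 in root and -0.22 in leaf. The largest leaf values were -0.36 in the windows BnaA01g01760D to BnaA01g02220D and BnaA01g05070D to BnaA01g05610D. On C01 the largest values were 0.37 in root (BnaC01g04200D to BnaC01g04600D) and 0.41 in leaf (BnaC01g10000D to BnaC01g10560D). Over most of either side the medians varied with no steady rise or fall. At the end of the A01 part the root medians rose from -0.35 (BnaA01g10650D to BnaA01g11400D) through -0.19 and -0.14 to -0.02 (BnaA01g12450D to BnaA01g13320D). The leaf medians of the same windows were -0.07, -0.31, -0.17 and -0.24.

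**Figure D4:**
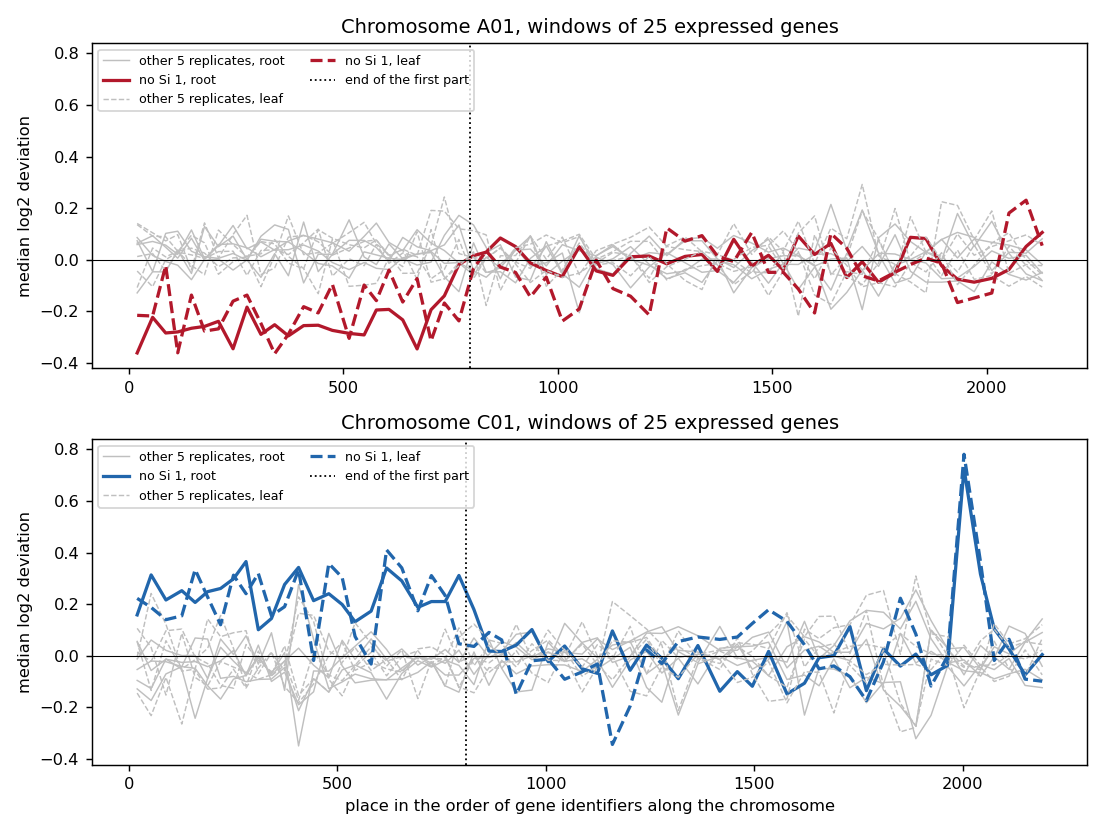
Median log2 deviation of windows of 25 expressed genes (vertical axis) against the place of the genes in the identifier order of A01 (top) and C01 (bottom), for no-Si replicate 1 (coloured; root solid, leaf dashed) and the other 5 replicates (grey); the dotted line marks the last member. The coloured lines run below 0 on A01 and above 0 on C01 up to about the dotted line, and a narrow C01 peak stands near the far end.

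The shift ended near the limits of the rule on both chromosomes. The same values chose the members, so this nearness is a description and no separate support for the limits. A single change point, placed to minimise the absolute deviations from the medians of both sides over root and leaf together, fell on A01 after BnaA01g13060D, gene 776 in order, with a median of -0.24 before and -0.04 after it. On C01 it fell after BnaC01g14620D, gene 832, with 0.21 before and -0.01 after. The A01 change point lies 18 genes before the last member and the C01 change point 23 genes past it. In the other 5 replicates the best step was at most 0.09 in size, against -0.20 on A01 and 0.22 on C01 in no-Si replicate 1.

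Root and leaf placed the end differently. On A01, root alone gave BnaA01g12200D (gene 739) and leaf alone BnaA01g13090D. On C01, root alone gave BnaC01g15060D and leaf alone BnaC01g13360D (gene 775). The end is therefore a zone rather than a gene on either chromosome.

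The genes just inside and just outside the limits differed clearly only on C01 in root. On A01 the last 25 expressed members (BnaA01g12520D to BnaA01g13390D) had a median of 0.00 in root and -0.10 in leaf, and the next 25 genes (BnaA01g13400D to BnaA01g13880D) 0.02 and -0.03. On C01 the last 25 members (BnaC01g13570D to BnaC01g14120D) had 0.31 and 0.05, and the next 25 (BnaC01g14170D to BnaC01g15380D) 0.03 and 0.04. The last A01 members were thus already near 0 in root, while those of C01 were still shifted in root and near 0 in leaf. Over only 10 genes on each side, the C01 leaf medians ran the other way, -0.17 inside and 0.31 outside, while the C01 root medians were 0.34 and 0.02. The last member on each side was BnaA01g13390D, with deviations of -0.13 and 0.28, and BnaC01g14120D, with 0.36 and 0.27.

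Whether both sides differ in organ preference was asked with a measure the choice of members did not use, the difference between leaf and root over all 12 libraries. By edgeR's quasi-likelihood test, 162 of 718 tested A01 members (22.6%) were higher in leaf and 156 (21.7%) higher in root, at an adjusted p under 0.05 and a log2 difference of at least 1. Of 722 tested C01 members, 168 (23.3%) were higher in leaf and 155 (21.5%) higher in root. Of 45222 genes tested in the series, 23.5% were higher in leaf and 23.8% higher in root, 47.3% in all. The shares of both sides lay near this background, so the counts show no organ preference of either part beyond that of the genome at large. As these are whole organs, fewer cells of a type and less RNA per cell cannot be told apart.

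**Figure D5:**
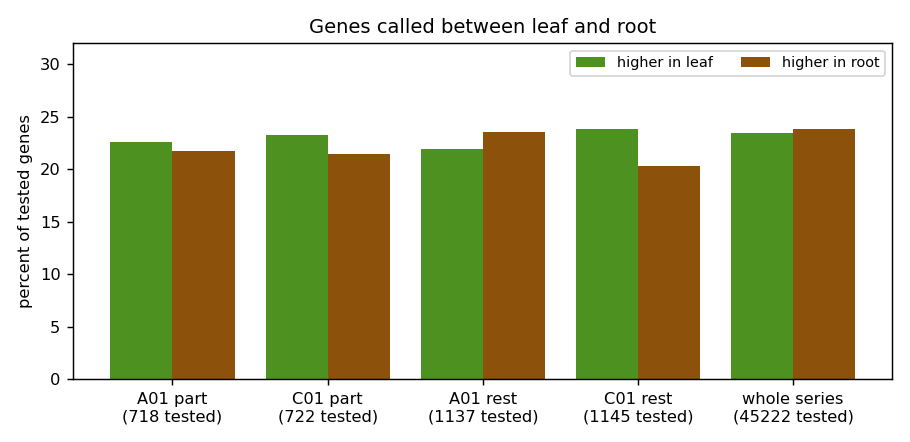
Percent of tested genes (vertical axis, from 0) called higher in leaf (green) or in root (brown) by edgeR at an adjusted p under 0.05 and a log2 difference of at least 1, for both parts, the rest of A01 and C01, and the whole series. Both parts lie between 21.5% and 23.3% in either direction, close to the 23.5% and 23.8% of the whole series.

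Within the parts, leaf and root genes were not spread evenly. In 6 stretches of about 120 tested genes each, the share higher in leaf ran from 12.5% (BnaA01g06260D to BnaA01g08560D) to 31.9% (BnaA01g11000D to BnaA01g13390D) on A01 and from 19.2% to 29.2% on C01. On both chromosomes the last stretch had the largest share higher in leaf. The first stretch had the largest share higher in root, 30.0% on A01 and 28.9% on C01. These shares were not tested against each other.

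The strongest leaf genes were nearly absent from root. BnaA01g12540D had a median of 1108 CPM in leaf (lowest 1016, highest 1206) and 0.951 CPM in root (0.227 to 1.84), a fitted log2 difference of 10.19 (SE 0.331, adjusted p = 8.80e-12, edgeR). BnaA01g00280D had 99.4 CPM in leaf (69.3 to 116) and 9 reads in all 6 roots together, and BnaA01g09640D had 164 CPM (151 to 182) and 0.185 CPM in root. Every leaf library was far above every root library for these genes. With so few reads in root, the fitted differences of 10.39 and 9.99 depend on the prior count.

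On C01, BnaC01g00070D had a median of 591 CPM in leaf (517 to 767) and 0.371 CPM in root (0.0907 to 1.74), a log2 difference of 10.27 (SE 0.425, adjusted p = 8.85e-11, edgeR). BnaC01g11550D had 1062 CPM in leaf with a wide spread, from 480 to 2306 CPM, and 0.846 CPM in root. BnaC01g01280D had 147 CPM in leaf (135 to 175) and 0.165 CPM in root. As on A01, the leaf and root libraries did not overlap.

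The strongest root genes were BnaA01g08470D, BnaA01g12350D and BnaA01g03520D on A01. BnaA01g12350D had a median of 38.1 CPM in root (29.9 to 68.1) and 10 reads in all 6 leaf libraries, with a log2 difference of -8.55 (SE 0.280, adjusted p = 9.56e-12, edgeR). BnaA01g08470D had 22.3 CPM in root (17.9 to 36.3) and 3 reads in all leaves, a ratio of 692 (exact 95% interval 237 to 3358, counting error only). BnaA01g03520D had 56.9 CPM in root (44.7 to 76.5) and at most 0.669 CPM in leaf.

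On C01, BnaC01g14060D had a median of 37.0 CPM in root (25.3 to 48.8) and 10 reads in leaf, with a log2 difference of -8.52 (SE 0.258, adjusted p = 4.85e-12, edgeR). BnaC01g04790D had 54.9 CPM in root (39.1 to 117) and BnaC01g08120D 29.4 CPM (11.1 to 45.2), with at most 0.745 CPM in any leaf library. For BnaC01g04790D the highest root library, at 117 CPM, was no-Si replicate 1. The same library was the highest for BnaC01g08120D.

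A few abundant genes carried much of the leaf counts. The 3 most abundant genes of each part held 25.6% to 32.9% of the A01 counts and 24.2% to 33.1% of the C01 counts in leaf, but 7.64% to 9.04% and 6.06% to 7.65% in root. Counts are not corrected for gene length, so levels of different genes are not compared here. BnaA01g03860D had 3526 CPM in leaf no-Si replicate 1, and 7443, 5572, 6770, 5478 and 5037 CPM in the other leaves, with 165 to 256 CPM in root. BnaC01g05230D had 4659 CPM in that leaf library and 4818 to 8508 CPM in the others, so both the A01 and the C01 gene were lowest in leaf no-Si replicate 1.

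BnaA01g00170D had a median of 2193 CPM in leaf (2056 to 2444) and 13.2 CPM in root, where no-Si replicate 1 was lowest with 9.42 CPM against 12.2 to 16.3 CPM. BnaC01g00680D had 2398 CPM in leaf (1660 to 3231) and 14.7 CPM in root. BnaA01g11800D and BnaC01g13370D were abundant in both organs. The former had 798 CPM in root no-Si replicate 1 against 909 to 1128 CPM and 730 CPM in leaf against 849 to 1439 CPM, the lowest library each time. The latter had 806 CPM in root against 642 to 869 CPM and 326 CPM in leaf against 281 to 717 CPM, inside the range in both organs.

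The C01 share of the counts of both parts was compared between organs by an exact permutation test over libraries. It averaged 51.8% ± 2.57 in leaf and 50.9% ± 3.37 in root (SD, n = 6 each), a difference of 0.95 percentage points (exact permutation p = 0.483, two-sided, 924 arrangements). Most of this spread stood in no-Si replicate 1. Without it the share was 50.8% ± 0.825 in leaf and 49.5% ± 0.198 in root (SD, n = 5 each), a difference of 1.32 points, with an exact permutation p of 0.00794, the smallest that 252 arrangements can give. The leaf values then all lay above the root values. The call is lost when root and leaf of the same treatment and number are taken as pairs: leaf was higher in 5 of 5 pairs, and exact sign flips gave a p of 0.0625, the smallest that 32 arrangements can give. Leaving out any other replicate gave exact p-values from 0.492 to 0.532.

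A similar difference stood in the rest of both chromosomes, where the C01 share was 47.8% ± 0.792 in leaf and 46.6% ± 0.519 in root (SD, n = 6 each; difference 1.21 points, exact permutation p = 0.0108; 0.0312 by exact sign flips, leaf higher in 6 of 6 pairs). The leaf excess of C01 counts is thus not shown to be particular to the first parts. Without the 3 most abundant genes of each part the difference was 1.01 points over all libraries (exact permutation p = 0.463) and 1.38 points without no-Si replicate 1 (exact permutation p = 0.00794; 0.0625 by exact sign flips).

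The excess differed with the set of genes counted. Members with a mean of at least 1 CPM in both organs had a C01 share of 52.6% ± 2.69 in leaf and 50.9% ± 3.40 in root (SD, n = 6 each), a difference of 1.69 points (exact permutation p = 0.405; 0.0312 by exact sign flips, leaf higher in 6 of 6 pairs). The remaining members went the other way, with 42.9% ± 1.79 in leaf and 50.8% ± 2.81 in root (SD, n = 6 each), a difference of -7.95 points (exact permutation p = 0.00216; 0.0312 by exact sign flips, leaf lower in 6 of 6 pairs). Without no-Si replicate 1 these differences were 2.01 and -7.44 points (exact permutation p = 0.00794 each; 0.0625 by exact sign flips). Each remaining member stayed below 1 CPM in root, leaf or both, so that set was picked by the organ levels the test compares. Its p-values therefore decide nothing about organ preference. Among the remaining members the C01 side held the smaller part of the leaf counts, and single genes weighed heavily. BnaA01g12540D, with a mean of 0.984 CPM in root, held 17734 of their 45823 A01 counts in leaf no-Si replicate 1. BnaC01g00070D held 9040 of their 38573 C01 counts there. The share without these genes was not tested, so no dependence on level is shown. The set of remaining members was added after the values were seen.

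The comparison of Si with no Si includes the library whose shift chose the members, so its direction over the parts is a description. By edgeR, no member was called at an adjusted p under 0.05 in root (1386 tested), in leaf (1326 tested) or in the test of the difference of the Si effect between organs (1440 tested). Over the whole table the called shares were 0% higher and 0.00235% lower in root, 0% and 0.00731% in leaf, and 0% in both directions for the difference between organs. The smallest adjusted p among members was 0.207 in root and 1.00 in the other tests.

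At an unadjusted p under 0.05 in root, 56 A01 members were higher and 15 lower with Si of 690, and 15 C01 members higher and 53 lower of 696, where 3.52% of all genes were higher and 5.34% lower. In leaf these counts were 23 and 17 of 664 on A01 and 3 and 28 of 662 on C01, with 1.38% and 2.71% of all genes. For the difference of the Si effect between organs they were 7 and 34 of 718 on A01 and 5 and 17 of 722 on C01, with 1.58% and 2.45% of all genes. Members had a median log2 fold change with Si of 0.10 on A01 and -0.05 on C01 in root, and 0.07 and -0.06 in leaf, beside 0.00 and -0.00 over all genes.

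Without no-Si replicate 1 the A01 and C01 medians no longer had opposite signs. They were then 0.023 on A01 and 0.030 on C01 in root and 0.0074 and 0.011 in leaf, so the C01 medians changed sign. In root 21 A01 members were higher and 25 lower of 695, and 21 C01 members higher and 31 lower of 700, where 3.72% of all genes were higher and 5.25% lower. In leaf the counts were 14 and 18 of 670 on A01 and 15 and 27 of 664 on C01, with 2.17% and 3.47% of all genes. No member was called at an adjusted p under 0.05 in either organ.

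DESeq2 called 16 members in root, 3 higher and 13 lower with Si, and none in leaf or for the difference between organs. Over all genes it called 0.28% higher and 0.804% lower in root, and 0.0219% and 0.0828% in leaf. The 3 higher members were BnaA01g06750D, BnaC01g00660D and BnaC01g02910D. Of the 13 lower members 11 were on C01, among them BnaC01g06390D, BnaC01g06420D and BnaC01g06470D, which in root were high in no-Si replicates 1 and 2.

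The members with the smallest p in root were all on C01. BnaC01g00660D had 9.81, 10.8 and 8.69 CPM without Si and 14.6, 18.3 and 15.1 CPM with Si, a log2 fold change of 0.71 (SE 0.134, adjusted p = 0.207, edgeR; 0.00754 by DESeq2). BnaC01g02910D had 3.21, 2.54 and 3.82 CPM without and 5.59, 5.47 and 6.26 CPM with Si (0.85, SE 0.185, adjusted p = 0.273, edgeR; 0.0404 by DESeq2). For both, all 3 Si roots lay above all 3 no-Si roots, and the call depended on the test.

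BnaC01g10530D had 25.9, 22.0 and 24.1 CPM without and 16.6, 14.9 and 16.5 CPM with Si, a log2 fold change of -0.58 (SE 0.109, adjusted p = 0.207, edgeR; 0.0106 by DESeq2). BnaC01g07430D had 2.42, 2.44 and 1.93 CPM without and 1.13, 0.982 and 0.952 CPM with Si (-1.15, SE 0.231, adjusted p = 0.249, edgeR; 0.0622 by DESeq2). All 3 Si roots lay below all 3 no-Si roots, and without no-Si replicate 1 the 4 genes kept log2 fold changes of 0.71, 0.85, -0.53 and -1.10.

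In leaf, BnaA01g00140D had 11.1, 12.0 and 13.9 CPM without and 23.3, 17.7 and 19.4 CPM with Si, a log2 fold change of 0.71 (SE 0.161, adjusted p = 1.00, edgeR). BnaA01g05860D had 6.30, 8.32 and 14.3 CPM without and 14.5, 23.2 and 31.3 CPM with Si (1.27, SE 0.366, adjusted p = 1.00, edgeR). BnaC01g00600D had 33.1, 35.0 and 37.3 CPM without and 27.4, 24.9 and 21.8 CPM with Si (-0.50, SE 0.136, adjusted p = 1.00, edgeR). The groups did not overlap for these genes, and none passed the test by edgeR or DESeq2. BnaC01g04340D was low throughout, with 0.917, 1.34 and 0.781 CPM without and 0.313, 0.397 and 0.247 CPM with Si (-1.60, SE 0.423, adjusted p = 1.00, edgeR).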

How the data were processed

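Per the file headers, the deposited tables give read counts of every gene for each library in 3 columns (either strand, forward and reverse) and set unmapped, multimapping, ambiguous and outside-gene reads apart. The submitters' processing notes name TopHat2 and Bowtie2. The build, the annotation and the program used for counting are not given in the sources. The reverse counts were used as sense counts. The 12 libraries were grouped by titles, treatment and tissue labels. No 2 replicates of a group agreed within sampling noise (chi-square between 5.55 and 40.6 per degree of freedom).

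The members, lists and tests were chosen with earlier results of these data known. Fits ran over all genes in edgeR 4.0.16 under R 4.3.3, using TMM, filterByExpr and robust quasi-likelihood tests, two-sided, with Benjamini-Hochberg adjusted p-values. The SE of a log2 difference was derived from its F statistic. DESeq2 1.42.0, other scalings, filters, a replicate block and the removal of each replicate were alternatives. The programs were tested on simulated data. Deviations were taken on log2 CPM (prior count 1) for genes whose mean reached 1 CPM in each organ. Change points left at least 50 such genes on each side. Genes named in the text were the ends of the parts and change points, the 2 smallest p-values per direction for Si, the 3 largest organ differences per side and direction at a mean of at least 20 CPM, the 3 largest deviations with and 2 against each side at a mean of at least 5 CPM, and the 3 most abundant per side. Other named genes were chosen after their values were seen. The table of RefSeq symbols served for order and chromosome only, and no sequence was used here.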

Additional observations from a re-analysis of the deposited data

How the results depend on the processing

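The shift of no-Si replicate 1 kept its direction on both sides and in both organs under all scalings, filters, prior counts, references and strands tried. With total gene counts in place of TMM it was -0.30 in root and -0.13 in leaf on A01, and 0.18 and 0.25 on C01. With a mean CPM of at least 0.2 the A01 leaf value was -0.17, and with at least 10 the C01 leaf value was 0.16. The end on A01 fell at gene 739 with squared deviations or root alone and at gene 725 with a mean CPM of at least 10, and the end on C01 at gene 775 with leaf alone.

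DESeq2 called 16 members in root. By edgeR, leaving out 1 library at a time gave 0 to 2 calls in root. The 2 came without no-Si replicate 3 (BnaA01g06750D and BnaC01g01500D, both higher with Si), 0.143% of 1395 members tested. Over all 43033 genes of that fit, 0.0325% were called higher and 0.0511% lower. The median Si change ranged over these fits from 0.023 to 0.14 in root and 0.0074 to 0.11 in leaf on A01, and from -0.10 to 0.030 and -0.11 to 0.011 on C01. The organ difference of the C01 share ranged over the removal of each replicate from 0.635 to 1.32 points, passing the test only without no-Si replicate 1. It was 1.69 points over members with a mean of at least 1 CPM in both organs and -7.95 points over the remaining members. That set was added after the data were seen and was picked by the organ levels compared. BnaA01g12540D alone held many of its A01 leaf counts.

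Same-numbered root and leaf libraries of 1 treatment deviated together in 6 of 6 pairs (correlations from 0.0283 to 0.342, 5 of them over 0.1). Of the differently numbered pairs 10 of 12 were below 0. Deviations were taken from means of groups of 3, which pushes these pairs below 0 when same-numbered ones are above it. The 10 pairs are therefore no separate evidence. Same-numbered no-Si and Si libraries of 1 organ ran from -0.0989 to 0.255. The labels do not state a pairing and 1 organ pair was under 0.1, so the main tests have no block, but the organ pairs are a hint from the data. Root no-Si replicates 1 and 3 correlated more with a leaf library of another number than with their own. With the replicate block 0 members were called for Si in root, in leaf or between organs. Of 718 tested A01 members, 161 (22.42%) were then called higher in leaf and 159 (22.14%) higher in root. Of 722 tested C01 members, 166 (22.99%) were higher in leaf and 158 (21.88%) higher in root. Over all 45222 genes tested with this block the shares were 23.43% and 24.05%. Sign flips within pairs gave an exact permutation p of 0.125 for the C01 share (leaf higher in 5 of 6 pairs) and, without no-Si replicate 1, of 0.0625. For members with a mean of at least 1 CPM in both organs, the exact permutation p was 0.405 and that of exact sign flips 0.0312. Without no-Si replicate 1, both sets by level gave an exact permutation p of 0.00794 and, by exact sign flips, 0.0625. These are the smallest p-values that 252 and 32 arrangements can give. The same held without the 3 most abundant genes of each part. The set of remaining members was picked by the organ levels compared, so its p-values decide nothing.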

Other observations

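The rest of C01 held 1 further stretch shifted in no-Si replicate 1, found after the data were seen. In the window BnaC01g39740D to BnaC01g40540D the median log2 deviation was 0.73 in root and 0.78 in leaf, and in the next one, BnaC01g40610D to BnaC01g41230D, 0.32 and 0.36. Over the 50 expressed genes of both windows the median was 0.40 in root and 0.46 in leaf of no-Si replicate 1, with 36 genes above 0 in both organs and 7 at 1 or above in both. In the other 5 replicates the medians lay between -0.12 and 0.04 and no gene reached 1 in both. The window BnaC01g35040D to BnaC01g35910D was lower in no-Si replicate 1, at -0.13 and -0.17. It deviated more in no-Si replicate 2, at 0.18 in root and 0.24 in leaf, so it did not set no-Si replicate 1 apart. In no-Si replicate 1, all other C01 windows and all 35 A01 windows outside the parts stayed within 0.1 in at least 1 organ or differed in sign between organs.

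In the Da-Ae assembly a few identifiers stand elsewhere than their name says. BnaC01g03230D, named for C01, lies on chromosome A1 there, between BnaA01g00960D and BnaA01g02850D, and had deviations of 0.25 in root and 0.67 in leaf in no-Si replicate 1, the direction of the C01 part. Its 12.2 CPM in that root lay inside the 9.78 to 14.7 CPM of the other roots. In leaf its 60.4 CPM lay above their 33.6 to 43.3 CPM. BnaA01g11290D, named for A01, lies on C1 there and had 10.3 CPM in leaf no-Si replicate 1 against 4.38 to 9.65 CPM in the other leaves. The unplaced genes BnaAnng13520D and BnaCnng53710D lie on C1 between members there and had -0.49 and -0.40 in root and 0.22 and 0.44 in leaf. BnaCnng47760D, also unplaced and on C1 there, had means of 0.520 CPM in root and 0.607 CPM in leaf, and deviations of 0.66 and 0.82. BnaC08g47840D, on C1 there too, had only 0.0440 and 0.0573 CPM in root and leaf of no-Si replicate 1.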
